A study of Homo sapiens with 15 samples.

Results

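The comparison set MCF-10A cells that carried an empty vector against parental MCF-10A cells, with 3 libraries in each group. MCF-10A is a non-tumorigenic human mammary epithelial line. The 6 libraries were chosen by their labels, out of 15 in the series, and 17457 of the 60721 genes in the count table passed the filter on low counts and were tested. The other 9 libraries come from 3 NF1-edited genotypes, labelled NF1-g1, NF1-g2 and NF1-g1/g2 after their guides, with 3 libraries each. The parental and empty vector genotypes are the controls of that design and are both unedited at NF1. All cells were untreated and grown in phenol red-free DMEM/F12 with horse serum, EGF, hydrocortisone, cholera toxin and insulin, and poly(A) RNA was sequenced. Whether the empty vector line is a clone or a pool, and what the vector contains, is not given in the sources used here. The labels call the 3 libraries of a group biological replicates without naming separate cultures, so the p-values measure the spread between these samples.

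An empty vector line has been through the delivery and any selection that the edited lines went through, without a guide that directs the nuclease, and serves as their control. Cultured lines also drift: sublines that are passaged apart can come to differ in gene expression and in chromosome content. MCF-10A cells depend on EGF for growth and express markers of basal mammary epithelium, the layer that rests on the basement membrane, together with mesenchymal genes such as vimentin.

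Total counts per library ranged from 46193664 to 63830235 over the 6 libraries, so that 3 counts corresponded to 0.0470 to 0.0649 CPM, the count scaled to the total of its library. This floor and the intervals below cover counting error only, since the labels name no molecular identifiers that would tell PCR copies apart. Empty vector libraries correlated at 0.995 to 0.998 in log2 CPM across genes and parental libraries at 0.986 to 0.994, and the median within-group SD was 0.106 and 0.154 on the log2 scale. In pairs of replicates, 25.3% to 65.8% of genes differed beyond counting noise, against 5% by chance, so no pair looked like a single library deposited under different names. Empty vector replicates 1 and 2 were the closest pair (0.998 and 25.3%), and replicate 3 stood apart from them (0.995, with 48.5% and 49.2%). In the other pairs 48.5% to 65.8% of genes differed.

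Several libraries stood apart from others with the same label. Parental replicate 1 and guide 2 replicate 2 had raised levels over chromosomes 7, 8, 11, 13, 19 and 20: the median deviation of chromosome 13 genes from the mean of 15 libraries was 0.32 in parental replicate 1 and 0.41 in guide 2 replicate 2 on the log2 scale, against 0.00 and 0.08 in the other parental libraries. Across tested genes, the deviation of guide 2 replicate 2 from the other guide 2 libraries correlated with the deviation of parental replicates 1, 2 and 3 from their group mean at 0.77, -0.84 and 0.10, values that are not independent because the 3 parental deviations sum to 0. CBY2, a gene on chromosome 13, had 278 counts in parental replicate 1 (4.88 CPM) and 6.63 CPM in guide 2 replicate 2, and it was the only gene with at least 1 CPM in either of them and at most 3 counts in each of the other 13 libraries. Basal markers also varied within the parental label. KRT5, a basal keratin, stood at 2997, 862 and 1536 CPM in parental replicates 1 to 3, and TP63, the transcription factor that maintains basal identity, at 37.4, 0.815 and 19.9 CPM. Parental replicate 2 was the low library in both. Whether parental replicate 1 and guide 2 replicate 2 share a subline or material was not tested.

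**Figure D1:**
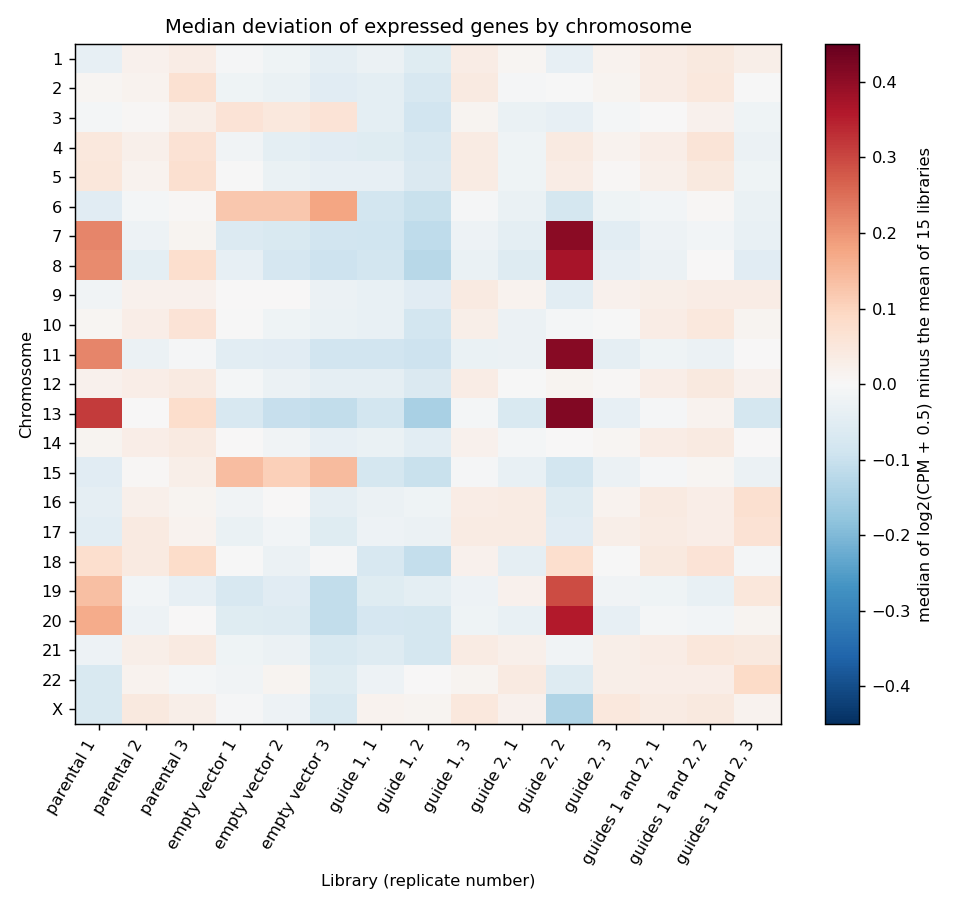
Median deviation of expressed genes on each chromosome (rows) in each of the 15 libraries (columns), as log2(CPM + 0.5) minus the mean over the 15 libraries. Parental replicate 1 and guide 2 replicate 2 are raised over chromosomes 7, 8, 11, 13, 19 and 20, and the 3 empty vector libraries are raised over chromosomes 6 and 15.

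Empty vector cells differed from parental cells at 762 genes, 4.37% of those tested, of which 495 (2.84%) were higher and 267 (1.53%) lower in the empty vector. A gene was called at an adjusted p under 0.05 in edgeR's quasi-likelihood test, fitted over all 15 libraries, with Benjamini-Hochberg adjustment. Most called differences were moderate: the median log2 fold change was 0.63 among genes called higher and -0.64 among genes called lower, and 174 and 60 of them reached an absolute log2 fold change of 1 (1.34% of tested genes). Over all tested genes the median log2 fold change was -0.01, and 48.5% were positive. The 3 empty vector libraries did not overlap the 3 parental ones at any of the 762 called genes, nor at 32.1% of all tested genes (14.1% higher and 18% lower in the empty vector).

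The number of calls depended on single libraries. Without guide 2 replicate 2, which belongs to neither group but enters the shared estimate of spread, 2484 genes were called (13.9%, with 8.68% higher and 5.24% lower), among them all 762. Without 1 library of either group the number fell: to 272 (1.52%), 319 (1.78%) and 157 (0.875%) without empty vector replicates 1, 2 and 3, and to 374 (2.09%), 145 (0.809%) and 277 (1.54%) without parental replicates 1, 2 and 3. The shares called higher in these 6 fits were, in the same order, 1.25%, 1.46%, 0.708%, 1.23%, 0.636% and 1.18%, and the shares called lower 0.262%, 0.323%, 0.167%, 0.854%, 0.173% and 0.362%. Counts of called list members given below are to be read against the shares of their fit, which over all 15 libraries were 2.84% higher and 1.53% lower. DESeq2 called 9.31%, 5.76% higher and 3.55% lower, and 19.8% of genes had an unadjusted p under 0.05 with edgeR. In a fit of the 6 libraries alone, 1122 genes were called (6.85%, with 3.84% higher and 3% lower), and 606 of them were among the 762. None of the 76 genes whose test was repeated in these fits changed direction. Most of these genes were named for called or large differences and did not overlap between the groups, which leaves little room for a change of sign.

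For 440 of the 762 called genes (57.7%), the 3 empty vector libraries lay outside the range of the other 12 libraries, against 6.70% of all tested genes. The 3 parental libraries lay outside the range of the other 12 for 88 called genes (11.5%), against 1.56% of tested genes. For the remaining 248 genes neither group stood outside. Calling requires the 2 groups to lie apart, so these shares describe where the edited lines fell and were not tested.

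Among called genes with an average log2 CPM of at least 1, the limit used for the ranking here, the gene with the highest log2 fold change was LCP1 (ENSG00000136167), which encodes L-plastin, an actin-bundling protein best known from leukocytes. It lies on the minus strand at chr13:46125920-46211871 in GRCh38. LCP1 stood at 0.474, 0.360 and 1.49 CPM in parental replicates 1 to 3 and at 69.6, 73.5 and 123 CPM in empty vector replicates 1 to 3. Every empty vector library was therefore far above every parental one, and above the 0.289 to 17.6 CPM of the 9 edited libraries. The log2 fold change was 6.92 (SE 1.33, adjusted p = 0.0151), and it stayed under the threshold in the 6 libraries alone (adjusted p = 0.00445). Without 1 library of either group the adjusted p ranged from 0.0340 to 0.0771. The only other called member of 10 tested actin-bundling genes (4 without guide 2 replicate 2, and 0 to 2 without 1 library of either group) was ESPN, the bundling protein espin of hair-cell stereocilia, with 0.0783 to 0.152 CPM in parental and 0.578 to 0.895 CPM in empty vector libraries (log2 fold change 2.65, adjusted p = 0.0127). The widely expressed bundlers, the alpha-actinins ACTN1 and ACTN4, fascin FSCN1 and plastin PLS3, had log2 fold changes of 0.23, 0.08, 0.08 and 0.33, none called.

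IL1B (ENSG00000125538), which encodes the inflammatory cytokine interleukin-1 beta, followed in that ranking. It lies on the minus strand at chr2:112829751-112836903. Its level was 4.54, 1.13 and 4.07 CPM in parental replicates 1 to 3 and 35.9, 32.6 and 75.1 CPM in empty vector replicates 1 to 3. The edited libraries held 1.03 to 10.2 CPM, so the empty vector line was the high line among all 5 genotypes. The log2 fold change was 3.92 (SE 0.760, adjusted p = 0.0153).

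The next 3 genes in the ranking encode a transporter, an adaptor and an enzyme. SLC27A6, a fatty acid transport protein, rose from 0.456, 0.188 and 0.844 CPM to 4.46, 4.50 and 9.21 CPM (log2 fold change 3.67, adjusted p = 0.00624). SDCBP2, the PDZ protein syntenin-2, rose from 1.68, 1.25 and 3.51 CPM to 17.0, 17.5 and 23.3 CPM (log2 fold change 3.21, adjusted p = 0.00101). ENTPD2, an ectoenzyme that degrades extracellular ATP, rose from 2.63, 0.768 and 1.19 CPM to 12.9, 12.9 and 13.5 CPM (log2 fold change 3.12, adjusted p = 0.0131). The empty vector libraries agreed closely at ENTPD2, and for all 3 genes they lay above the 9 edited libraries, whose highest values were 3.27, 6.88 and 4.89 CPM.

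TLR4, the receptor for bacterial lipopolysaccharide, showed another arrangement. It stood at 2.68, 1.80 and 1.86 CPM in parental replicates and at 9.91, 9.44 and 10.7 CPM in empty vector replicates, while the edited libraries ranged from 4.13 to 18.1 CPM with a median of 12.8. Here the parental libraries were the low ones among all 15 (log2 fold change 2.27, SE 0.402, adjusted p = 0.0105). ESM1, the proteoglycan endocan, was likewise lowest in the parental cells, at 0.454 to 1.02 CPM, against 2.7 to 3.97 CPM in the empty vector (log2 fold change 2.28) and 1.54 to 6.85 CPM in the edited lines. The remaining genes among the 12 highest above that limit were TMEM40 (2.58), the long noncoding RNA CASC19 (2.48), the endothelial junction protein gene JCAD (2.29), SAMSN1 (2.27), an adaptor known from B cells and mast cells, and CORO2B (1.97), a coronin, with log2 fold changes in parentheses. Of these, TMEM40 (adjusted p = 0.134), CASC19 (0.0880) and CORO2B (0.0827) missed the threshold without parental replicate 1. In at least 1 fit without another library of the 2 groups, ENTPD2, TLR4, ESM1, JCAD and SAMSN1 missed it too. Their largest adjusted p ran from 0.0505 (JCAD) to 0.0842 (ESM1), while SLC27A6 and SDCBP2 stayed called.

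MPO and RELN lay below that limit and were close to absent from parental cells. Their fitted log2 fold changes, 7.04 and 7.12, exceeded that of LCP1 (6.92) and rest on very few parental counts. MPO, the myeloperoxidase of neutrophil granules, had 2, 0 and 1 counts in parental replicates and 117, 130 and 181 counts in empty vector replicates. The ratio of summed counts, each scaled to the summed library totals of its group, was 144, with a 95% counting interval of 49.1 to 703. RELN, which encodes the secreted glycoprotein reelin, had 0, 1 and 0 counts against 62, 78 and 43, a ratio of 185 with an interval of 32.8 to 7358. These 2 genes were the only ones with at most 3 counts in each parental library and a mean of at least 1 CPM in the empty vector, and in the edited lines their highest values were 0.339 CPM for MPO and 0.0574 CPM for RELN.

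LCP1, MPO, TLR4 and SAMSN1, all higher in the empty vector, are known from blood cells, as is FPR1, a phagocyte receptor that was lower (log2 fold change -4.0). Immune markers were therefore read in the same libraries. Of 10 immune markers, 5 (PTPRC, CD3E, LYZ, FCGR3A and HLA-DRA) had at most 3 counts in each of the 6 libraries, PTPRC being the gene of the pan-leukocyte antigen CD45. Only the monocyte genes CSF1R and CD14 passed the filter. Neither was called in edgeR's test over 15 libraries, while both had an unadjusted p under 0.05 and both were called higher with DESeq2 and without guide 2 replicate 2. CSF1R stood at 2.05, 4.06 and 6.41 CPM in parental and 7.0, 6.64 and 11.5 CPM in empty vector replicates (adjusted p = 0.128), and CD14 at 3.29 to 3.79 against 4.57 to 6.95 CPM (adjusted p = 0.0750). The summed level of the 10 markers was 6.07 to 9.78 CPM in parental and 13.1 to 16.3 CPM in empty vector libraries. Whether other cells contributed to the difference was not tested.

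**Figure D2:**
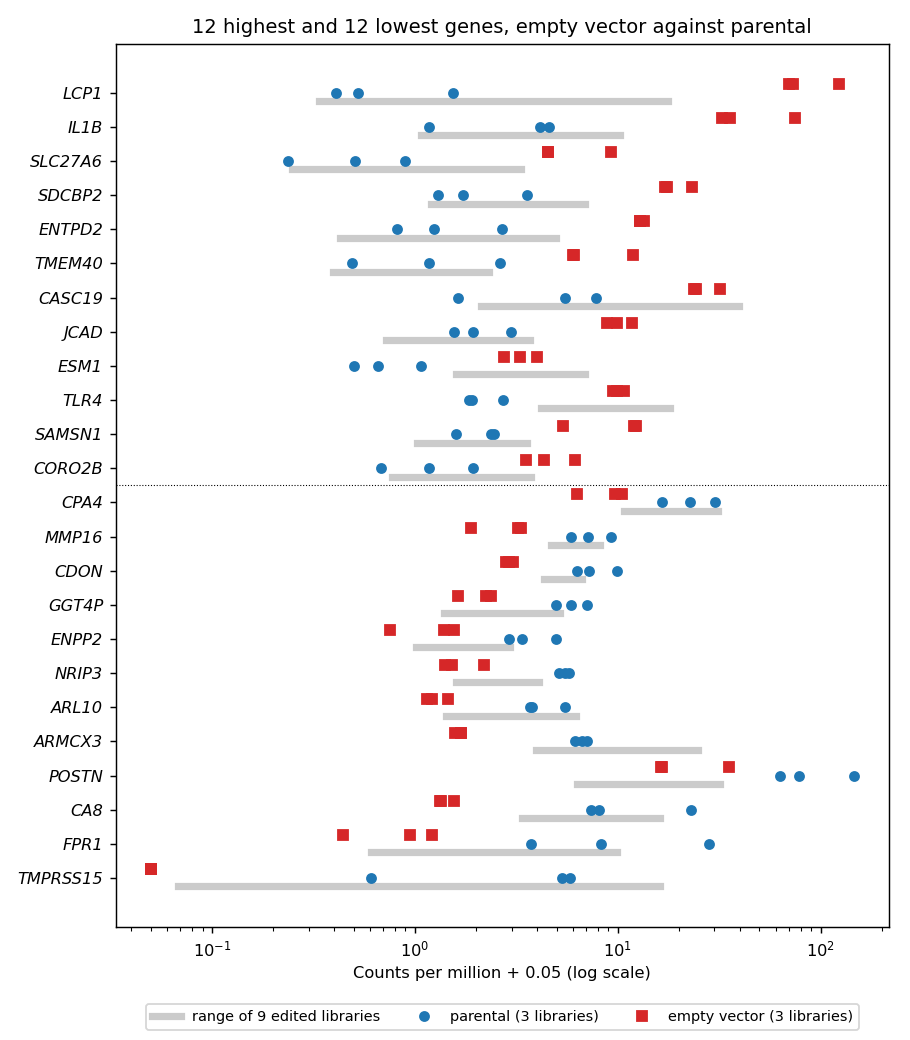
Level in CPM + 0.05 on a log axis of the 12 called genes with the highest and the 12 with the lowest log2 fold change, among those with an average log2 CPM of at least 1. Blue circles are the 3 parental and red squares the 3 empty vector libraries, and the grey bar spans the 9 edited libraries. Blue and red points do not overlap for any of the 24 genes, and at LCP1 the red points stand at 69.6 to 123 CPM, to the right of the grey bar.

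At the other end, TMPRSS15, which encodes the intestinal protease enteropeptidase, had no count in any empty vector library and 32, 370 and 243 counts in parental replicates 1 to 3. Against a floor of 3 counts per library the mean was at least 69.2-fold lower in the empty vector (adjusted p = 0.0217). The edited libraries ranged from 0.0179 to 16.1 CPM. CBY2 was likewise without counts in the empty vector, but parental replicate 1 held all its parental counts. These were the only genes at or under 3 counts in each empty vector library with a parental mean of at least 1 CPM.

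FPR1, a receptor for formylated bacterial peptides, stood at 3.68, 28.0 and 8.23 CPM in parental replicates and fell to 0.893, 1.16 and 0.392 CPM in the empty vector (log2 fold change -4.0, SE 0.682, adjusted p = 0.00888). CA8, a carbonic anhydrase-related protein, fell from 22.9, 7.38 and 8.05 CPM to 1.28, 1.29 and 1.51 CPM (log2 fold change -3.20, adjusted p = 0.0127). POSTN, the matrix protein periostin, fell from 63.1, 77.8 and 146 CPM to 16.3, 16.6 and 35.4 CPM (log2 fold change -2.03, adjusted p = 0.0348). The parental libraries were spread widely for these 3 genes, yet each was above every empty vector library. For POSTN the edited range was 6.27 to 31.8 CPM, and the parental libraries were the high ones among all 15.

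ARMCX3, an X-linked gene for a mitochondrial outer membrane protein, was tight in both groups: 6.65, 6.99 and 6.08 CPM in parental and 1.52, 1.64 and 1.64 CPM in empty vector replicates. The edited libraries held 3.93 to 24.7 CPM, which places the empty vector below the other 12 libraries (log2 fold change -2.0, SE 0.412, adjusted p = 0.0196). CDON, a co-receptor for Hedgehog ligands, showed the same placement, with 6.26 to 9.87 CPM in parental, 2.78 to 2.99 in empty vector and 4.26 to 6.63 CPM in edited libraries (log2 fold change -1.40, SE 0.163, adjusted p = 0.00131). The other genes among the 12 lowest were ARL10 (-1.78), NRIP3 (-1.68), ENPP2 (-1.61), whose product autotaxin makes lysophosphatidic acid, GGT4P (-1.51), the matrix metalloprotease gene MMP16 (-1.38) and the carboxypeptidase gene CPA4 (-1.36). GGT4P is a pseudogene of a multigene family, and its reads may be shared with close copies. ENPP2 missed the threshold whichever 1 library of either group was left out (adjusted p from 0.0651 to 0.154). TMPRSS15, FPR1, CA8, POSTN, ARMCX3 and CPA4 missed it in at least 1 such fit, with a largest adjusted p from 0.0524 (FPR1) to 0.137 (POSTN). ARL10, NRIP3, GGT4P, CDON and MMP16 stayed called.

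Among abundant genes the differences were smaller. LAMB3, the beta chain of laminin-332 that anchors epithelium to the basement membrane, stood at 606, 468 and 746 CPM in parental and 1197, 1187 and 1707 CPM in empty vector replicates, which is a log2 fold change of 1.20 (SE 0.187, adjusted p = 0.00600). SLC20A1, a phosphate transporter, rose from 584 to 676 CPM in parental to 819 to 1067 CPM in empty vector libraries (log2 fold change 0.62). The secretory-pathway genes PDIA3, a protein disulphide isomerase, and SEC61A1, the pore of the translocon, rose by 0.35 and 0.32, each with a within-group SD of at most 28.0 CPM on means of 488 to 705 CPM. The most abundant genes called lower were TOP2A, CENPF and TPX2, described with the mitosis genes, and RAD21, a cohesin subunit that holds sister chromatids together. RAD21 stood at 561, 548 and 581 CPM in parental and 347, 341 and 378 CPM in empty vector replicates (log2 fold change -0.63, adjusted p = 0.0265).

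Some inflammatory genes were higher in the empty vector. Of 10 tested interleukin-1 family genes, out of 14 listed, IL1B alone was called (1 of 10, against 2.84% of all tested genes higher), and the median log2 fold change was 0.73. IL1A, the other interleukin-1 agonist, stood at 99.3, 8.13 and 40.2 CPM in parental and 83.2, 71.5 and 117 CPM in empty vector replicates, with overlapping groups. IL18 and the interleukin-33 receptor gene IL1RL1 did not overlap, at 135 to 154 against 185 to 214 CPM and at 5.11 to 7.96 against 14.8 to 23 CPM, and were not called in this fit. Without guide 2 replicate 2, 3 of the 10 were called, all higher, and IL1B missed the threshold without empty vector replicate 3 and without parental replicates 2 or 3.

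Of 14 tested chemokine and cytokine genes, LIF and CSF3 were called higher (2 of 14, against 2.84% of all tested genes) and CCL28 lower (1 of 14, against 1.53%), with a median of 0.80. LIF, a cytokine that signals through gp130 and STAT3, stood at 6.42, 3.13 and 3.23 CPM in parental and 15.3, 12.8 and 9.10 CPM in empty vector replicates (log2 fold change 1.57, SE 0.344, adjusted p = 0.0248). CSF3, the granulocyte colony-stimulating factor, rose from 25.9, 9.59 and 12.4 CPM to 50.4, 47.6 and 40.9 CPM (log2 fold change 1.56, SE 0.399, adjusted p = 0.0447). CCL28, an epithelial chemokine of mucosal surfaces, fell from 4.91, 4.86 and 4.81 CPM to 2.31, 2.08 and 2.91 CPM (log2 fold change -0.96, adjusted p = 0.0209). The neutrophil chemokine CXCL8 stood at 91.9, 31.2 and 33.5 CPM against 126, 115 and 83.5 CPM: parental replicate 1 overlapped the empty vector, and the gene was not called. Without parental replicate 1, 5 of 14 were called higher and none lower. Without any 1 of the other 5 libraries of the 2 groups none was called higher, where edgeR over all libraries had 7 at an unadjusted p under 0.05 and DESeq2 called 3.

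NF-kB is the transcription factor family that drives many of these genes and also its own inhibitors. Of 17 tested subunits, feedback inhibitors and targets, ICAM1 and SOD2 were called higher (2 of 17, against 2.84% of all tested genes) and none lower, with a median of 0.43. ICAM1, the leukocyte adhesion receptor, stood at 10.6, 9.31 and 6.78 CPM in parental and 27.1, 25.9 and 30.5 CPM in empty vector replicates, above the 4.20 to 14.6 CPM of the edited lines (log2 fold change 1.68, SE 0.191, adjusted p = 0.00131). When any 1 library of either group was left out, its adjusted p was at most 0.0121. SOD2, mitochondrial superoxide dismutase, stood at 148, 92.2 and 111 against 202, 195 and 187 CPM (log2 fold change 0.77). The subunits NFKB1, REL and RELA had log2 fold changes of 0.05, -0.15 and 0.05, and the inhibitor NFKBIA -0.02, none called. Without guide 2 replicate 2, 7 of 17 were called higher, and 1 or 2 were when 1 library of either group was left out.

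Genes of MHC class I, which shows intracellular peptides to T cells, had a median log2 fold change of 0.37 over 16 tested members. Of these, 2 were called higher (against 2.84% of all tested genes) and none lower. TAP1, a subunit of the peptide transporter, stood at 31.5, 26.9 and 23.8 CPM in parental and 40.7, 42.2 and 49.4 CPM in empty vector replicates (log2 fold change 0.72, adjusted p = 0.00866). HLA-C stood at 88.1, 103 and 86.5 against 130, 134 and 151 CPM (log2 fold change 0.61, adjusted p = 0.0131). HLA genes are close relatives and polymorphic, so reads may be split between them. Of the 16 genes 10 lie on chromosome 6, both called ones among them, and the chromosome as a whole was raised, as described below. Without guide 2 replicate 2, 10 of 16 were called higher, and 1 or 2 were when 1 library of either group was left out. Interferon-stimulated genes, which are induced by interferon as MHC class I also is, had a median of 0.01 over 22 tested members, and edgeR called none. At an unadjusted p under 0.05 it had 1, DESeq2 called 1, and 2 were called without guide 2 replicate 2, all higher. The largest were IFIH1, an RNA sensor, at 3.56 to 7.02 against 7.80 to 11.2 CPM, and BST2, tetherin, at 21.6 to 43.1 against 12.4 to 24.0 CPM.

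Mitosis genes had the lowest median of the 26 lists. All 26 listed genes were tested, 6 were called lower (against 1.53% of all tested genes) and none higher, and the median log2 fold change was -0.72, against -0.01 over all tested genes. In 25 of the 26 every empty vector library was below every parental one, against 18% of all tested genes. Genes of this kind are transcribed in the G2 and M phases of the cell cycle, so their level in bulk RNA follows the share of cells in those phases. Fewer cells of a kind and less RNA per cell cannot be told apart in these libraries. The called members were TOP2A, CENPF, TPX2, UBE2C, CDK1 and KIF11.

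TOP2A, the topoisomerase that untangles replicated DNA, stood at 749, 971 and 881 CPM in parental and 416, 435 and 501 CPM in empty vector replicates (log2 fold change -0.91, SE 0.203, adjusted p = 0.0264). CENPF, a kinetochore protein, fell from 750, 923 and 870 CPM to 344, 396 and 471 CPM (log2 fold change -1.04, SE 0.233, adjusted p = 0.0274). TPX2, a spindle assembly factor, fell from 476, 460 and 431 CPM to 230, 241 and 290 CPM (log2 fold change -0.81, adjusted p = 0.0446). Empty vector replicate 3 was the highest of its group at each of these genes and still below every parental library. UBE2C, the ubiquitin-conjugating enzyme of the anaphase-promoting complex, fell by 0.79 on the log2 scale, the mitotic kinase CDK1 by 0.73 and the spindle motor KIF11 by 0.74. Uncalled members such as the cyclin CCNB1 (365, 388 and 393 against 186, 189 and 260 CPM) and the kinase AURKA (196, 204 and 192 against 110, 110 and 130 CPM) had similar differences, of -0.82 and -0.72. The exception was NUSAP1, a spindle protein, with 0.157 to 0.325 CPM in parental and 0.336 to 0.406 CPM in empty vector libraries, a level close to the floor. NUSAP1 is ordinarily abundant in dividing cells, and the annotation behind the counts is not given, so this count may not measure its main transcript.

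The number of mitosis genes called lower was 17 of 26 without guide 2 replicate 2, with DESeq2 likewise 17, and 23 of 26 in the 6 libraries alone. It fell to 2 without parental replicate 1 and to 0 with edgeR without any 1 of the other 5 libraries of the 2 groups, although 24 had an unadjusted p under 0.05 and a lower level in the fit of all libraries. The median ranged from -0.81 to -0.64 when 1 library of either group was left out. The spread that enters the test comes in part from the edited lines. Guide 1 replicates 1 and 2 had median deviations of -0.62 and -0.64 for these genes from the mean of 15 libraries, and guide 1 replicate 3 had 0.32. The empty vector libraries stood at -0.52, -0.49 and -0.20 and the parental ones at 0.28, 0.39 and 0.34.

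Promoters of mitosis genes commonly hold a CHR element (cell cycle genes homology region) downstream of CCAAT boxes, which are bound by the DREAM and MuvB complexes and by NF-Y. RefSeq promoters (GRCh38.p14, 250 bases before to 50 after the gene start) were therefore searched for TTTGAA or TTTAAA and for CCAAT, on both strands, and 4 of the 6 called genes had an entry. All 4 held both motifs. They are printed here 5′ to 3′ on the gene's strand, with matches in capitals (TTCAAA and ATTGG are the motifs read from the other strand). They were printed as called genes that all held both motifs, a feature that the counts did not use. CDK1 is at chr10:60778081-60778380 on the plus strand, TOP2A at chr17:40417847-40418146 on the minus strand, CENPF at chr1:214602945-214603244 on the plus strand and KIF11 at chr10:92592880-92593179 on the plus strand.
CDK1: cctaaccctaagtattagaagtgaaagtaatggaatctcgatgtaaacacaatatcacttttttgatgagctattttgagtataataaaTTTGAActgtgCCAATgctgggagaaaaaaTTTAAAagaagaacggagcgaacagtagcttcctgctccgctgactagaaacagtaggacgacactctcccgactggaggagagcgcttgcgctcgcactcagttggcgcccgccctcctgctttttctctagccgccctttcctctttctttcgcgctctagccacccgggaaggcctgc
TOP2A: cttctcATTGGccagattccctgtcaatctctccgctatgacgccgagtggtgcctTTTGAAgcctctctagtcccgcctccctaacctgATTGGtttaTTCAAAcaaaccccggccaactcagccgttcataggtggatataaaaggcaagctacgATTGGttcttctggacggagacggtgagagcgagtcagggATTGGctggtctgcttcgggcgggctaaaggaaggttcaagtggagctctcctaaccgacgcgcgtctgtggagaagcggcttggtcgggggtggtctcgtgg
CENPF: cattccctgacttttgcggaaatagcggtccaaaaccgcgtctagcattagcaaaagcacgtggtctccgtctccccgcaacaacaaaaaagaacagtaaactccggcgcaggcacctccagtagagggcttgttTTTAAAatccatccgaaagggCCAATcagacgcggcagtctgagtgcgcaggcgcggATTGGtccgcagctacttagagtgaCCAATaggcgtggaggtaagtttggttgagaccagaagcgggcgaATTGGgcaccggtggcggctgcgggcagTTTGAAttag
KIF11: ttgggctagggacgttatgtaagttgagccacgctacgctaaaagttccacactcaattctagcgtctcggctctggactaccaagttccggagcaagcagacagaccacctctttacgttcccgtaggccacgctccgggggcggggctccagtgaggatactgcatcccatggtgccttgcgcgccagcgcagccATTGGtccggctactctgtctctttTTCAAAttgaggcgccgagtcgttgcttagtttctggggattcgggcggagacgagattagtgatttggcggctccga

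Of 21 mitosis genes with a promoter entry, 16 (76.2%) held both motifs, against 6.69% of the 11761 tested genes with an entry and 9.49% of all 27305 promoters in the table. The CHR letters alone were in 19 of the 21 and in 16.4% of tested genes, and CCAAT was in 18 of the 21 and in 36.4% of tested genes. In CDK1 the CHR match TTTAAA follows the CCAAT match, and in KIF11 TTCAAA follows ATTGG. The replication genes described next held both motifs in 2 of 29 promoters. A match describes the letters in the window and not a bound site.

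DNA replication genes, which act earlier in the cell cycle, had smaller differences. All 31 listed genes were tested and edgeR called none over 15 libraries, while 12 had an unadjusted p under 0.05 and DESeq2 called 3, all lower. The log2 fold changes were negative in all 31, from -0.66 to -0.04 with a median of -0.33, and in 30 the groups did not overlap, against 18% of all tested genes. RFC3, a subunit of the clamp loader, stood at 75.2, 46.2 and 59.0 CPM in parental and 37.1, 35.1 and 39.6 CPM in empty vector replicates (adjusted p = 0.201), and GINS1, of the replicative helicase, at 68.7, 42.6 and 47.6 against 35.1, 33.7 and 36.3 CPM (adjusted p = 0.255). RFC3 and GINS1 lie on chromosomes 13 and 20, which were raised in parental replicate 1. The number called lower was 7 without guide 2 replicate 2 (against 5.24% of all genes in that fit) and 13 in the 6 libraries alone (against 3%).

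The transcription factor p53 restrains the cell cycle after stress, and some of its targets were higher in the empty vector. Of 20 tested targets 6 were called higher (against 2.84% of all tested genes) and none lower, with a median of 0.50. In 13 of the 20 every empty vector library was above every parental one, against 14.1% of all tested genes. CDKN1A (ENSG00000124762, chr6:36676460-36687339), whose product p21 inhibits cyclin-dependent kinases, stood at 109, 130 and 113 CPM in parental and 264, 269 and 255 CPM in empty vector replicates. The edited lines ranged from 90.0 to 327 CPM. The log2 fold change was 1.20 (SE 0.277, adjusted p = 0.0304), and it missed the threshold whichever library of either group was left out (adjusted p from 0.0783 to 0.0985). PHLDA3, an inhibitor of AKT, rose from 44.3, 39.9 and 40.3 CPM to 63.0, 66.4 and 70.1 CPM (log2 fold change 0.71, adjusted p = 0.00975). PLK3, a stress-responsive polo-like kinase, rose by 0.69, and SESN2, a sestrin that restrains mTORC1, by 0.61. The other called targets were the death receptor gene FAS (0.53) and SESN1 (0.59).

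Uncalled targets varied. ZMAT3, an RNA-binding protein, stood at 110, 117 and 113 CPM in parental and 188, 174 and 161 CPM in empty vector replicates (log2 fold change 0.65, adjusted p = 0.123), and TP53INP1 (0.63) and TP53I3 (0.55) did not overlap either. MDM2, the ubiquitin ligase that limits p53, stood at 174, 129 and 150 against 162, 163 and 152 CPM, and BAX and DDB2 had log2 fold changes of 0.04 and -0.01. CDKN1A and SESN1 lie on chromosome 6. The number of targets called higher was 10 without guide 2 replicate 2 (against 8.68% of all genes in that fit) and 9 in the 6 libraries alone (against 3.84%). It was 3, 3 and 1 without empty vector replicates 1, 2 and 3, and 4, 1 and 3 without parental replicates 1, 2 and 3. As for the mitosis genes, guide 1 replicates 1 and 2 stood with the empty vector: their median deviations were 0.28 and 0.32, against 0.17, 0.21 and 0.13 in the empty vector and -0.18, -0.26 and -0.25 in the parental libraries.

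**Figure D3:**
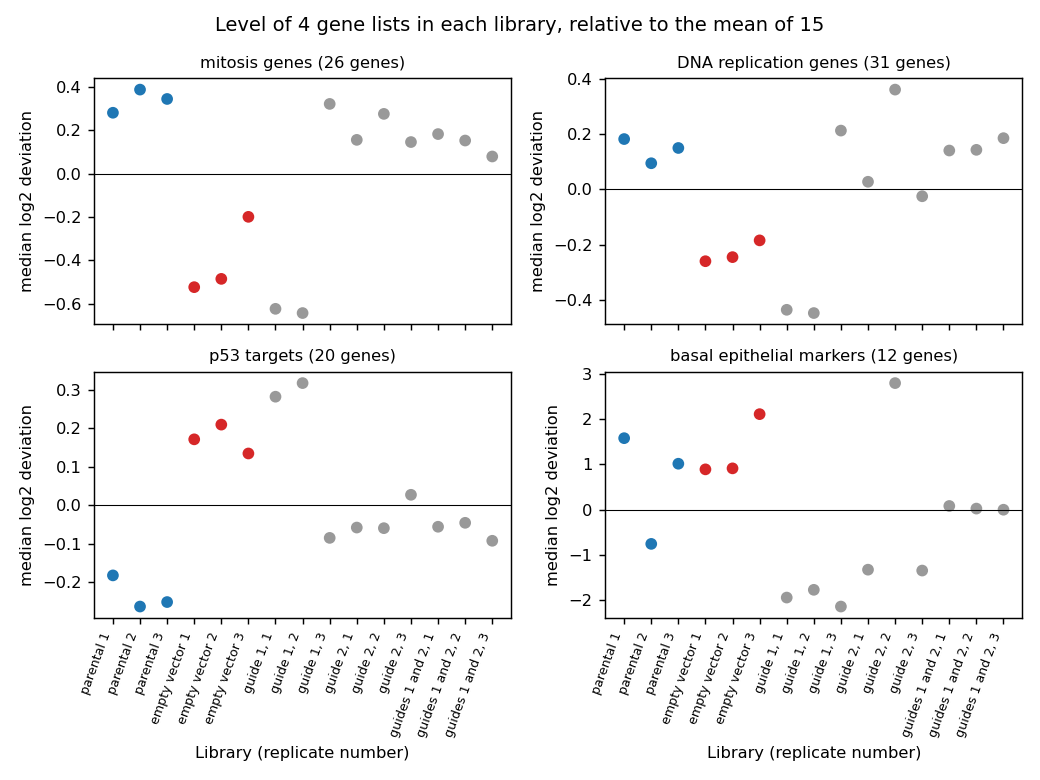
Median log2 deviation from the mean of 15 libraries for the tested genes of 4 lists, 1 point per library, with parental libraries in blue, empty vector in red and edited libraries in grey. For mitosis genes the red points lie at -0.52 to -0.20 and the blue at 0.28 to 0.39, and for basal epithelial markers the blue points spread from -0.76 to 1.58.

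Markers of cell identity varied widely within the parental group. Of 12 basal epithelial markers, all tested, LAMB3 alone was called, with a median log2 fold change of 0.66. The log2 fold change was positive in 11 of the 12. In 5 every empty vector library was above every parental one, against 14.1% of all tested genes. ITGB4, the integrin of hemidesmosomes, did not overlap (416, 485 and 457 against 605, 665 and 782 CPM) and was not called. KRT14 was the only marker with a negative log2 fold change (-0.57). It stood at 545, 37.8 and 265 CPM in parental and 118, 129 and 309 CPM in empty vector replicates. The desmosomal cadherin DSG3 stood at 45.8, 4.42 and 46.4 against 67.1, 72.3 and 135 CPM. In KRT14 and DSG3, parental replicate 2 was the lowest of the 6 libraries.

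Epithelial junction genes followed that library order. CDH1, E-cadherin, stood at 42.9, 1.79 and 37.8 CPM in parental and 44.1, 46.8 and 127 CPM in empty vector replicates. CLDN1, a tight-junction claudin, stood at 10.5, 1.80 and 7.81 against 22.7, 21.2 and 56.7 CPM (log2 fold change 2.37, adjusted p = 0.0669), and OCLN, occludin, at 0.982, 0.0313 and 1.52 against 1.24, 1.22 and 4.42 CPM (adjusted p = 0.514). Of the 12 tested genes edgeR called none, although the median was 0.76. It had 3 at an unadjusted p under 0.05, DESeq2 called 1, and 3 were called without guide 2 replicate 2, all higher. GRHL2, an epithelial transcription factor, was at or under 3 counts in each of the 6 libraries. Parental replicate 2 was low and empty vector replicate 3 high across these genes, with median deviations of -0.73 and 1.37.

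Other marker lists held few calls. Of 7 tested luminal markers 5 did not overlap and were higher (against 14.1% of all tested genes), with a median log2 fold change of 0.37. MUC1, a membrane mucin, was called: 34.0, 28.1 and 32.6 CPM against 45.3, 46.5 and 47.6 CPM (log2 fold change 0.59, adjusted p = 0.0443). It missed the threshold when any 1 library of either group was left out, and 3 luminal markers were called higher without guide 2 replicate 2. Of 13 mesenchymal genes SNAI1, a repressor of E-cadherin, was called, from 1.05, 1.27 and 1.23 CPM to 2.42, 2.99 and 3.06 CPM (log2 fold change 1.28, SE 0.202, adjusted p = 0.00635), while the list's median was 0.05 and vimentin, VIM, stood at 1466 to 2289 against 1543 to 1599 CPM. When guide 2 replicate 2 was left out, 4 mesenchymal genes were called higher and 3 lower. The fibroblast collagen gene COL1A2 was called lower at a low level, 0.498 to 0.548 against 0.105 to 0.131 CPM. Of the 3 tested endothelial markers TEK was called higher, at 0.238 to 0.298 against 0.578 to 0.903 CPM. Another of the 3 was lower without overlap (log2 fold change -1.45), and was called lower with DESeq2 and without guide 2 replicate 2. The summed level of the 6 listed markers was 4.77 to 12.3 CPM in parental and 3.00 to 5.37 CPM in empty vector libraries, and CDH5 and CLDN5 had at most 3 counts in each of the 6 libraries. The 20 tested keratinocyte differentiation genes, with a median log2 fold change of 0.66, held no call with edgeR or DESeq2, 1 gene at an unadjusted p under 0.05, and 4 calls, all higher, without guide 2 replicate 2. Their largest differences were at S100A9 and S100A8, the calprotectin subunits, with 1.36 to 6.84 against 14.0 to 37.9 CPM and 1.53 to 5.02 against 7.91 to 17.8 CPM (adjusted p = 0.257 and 0.242).

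NF1, the gene edited in the other lines, encodes neurofibromin, which switches RAS off. It lies at chr17:31094927-31382116 on the plus strand. NF1 stood at 159, 141 and 153 CPM in parental and 115, 123 and 133 CPM in empty vector replicates, a mean of 151 ± 9.30 against 124 ± 8.87 CPM (SD, n = 3 each), and at 26 to 51.3 CPM in the 9 edited libraries. The 2 unedited groups did not overlap and both were far above the edited lines. The log2 fold change was -0.25 (SE 0.0871, adjusted p = 0.121), and an exact two-sided permutation test gave p = 0.1, the smallest that 3 against 3 libraries allow. The NF1 level was past the threshold in limma's voom with sample quality weights (log2 fold change -0.31, adjusted p = 0.000532) and in no other fit made. Of the 8 tested RAS brakes edgeR called none, with a median of 0.03 and 3 genes at an unadjusted p under 0.05, and DESeq2 called 1. The largest were DAB2IP at 21.1 to 46 against 46.2 to 70.9 CPM and RASA3 at 38.8, 46.7 and 40.5 against 30.5, 32.4 and 26.2 CPM.

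ERK targets and feedback genes went in both directions. Of 20 tested genes 2 were called higher (against 2.84% of all tested genes) and 2 lower (against 1.53%), with a median of 0.13. The calls were 4 higher and 2 lower without guide 2 replicate 2, and 2 and 0 without parental replicate 1. Without any 1 of the other 5 libraries of the 2 groups edgeR called none, where 7 higher and 2 lower had an unadjusted p under 0.05 over all libraries and DESeq2 called 4 and 2. IER3, an immediate early gene on chromosome 6, stood at 109, 60.5 and 80.6 against 147, 139 and 173 CPM (log2 fold change 0.91), and SPRED2, an inhibitor of RAF activation, at 37.4 to 41.9 against 48.3 to 49.6 CPM (0.34). The AP-1 subunit gene FOSL1 fell from 135, 121 and 115 CPM to 82.6, 78.7 and 84.9 CPM (-0.56, adjusted p = 0.0307), and SPRY2, a Sprouty feedback inhibitor, fell by 0.44. FOSL1 (adjusted p = 0.0957) and SPRY2 (0.0541) lie on chromosomes 11 and 13 and missed the threshold without parental replicate 1, as they did without any other 1 library of the 2 groups. The ERK phosphatase gene DUSP6 and the early gene EGR1 had log2 fold changes of 1.07 and 1.26 and were not called.

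Stress and metabolic lists held few calls. Of 18 ATF4 and amino acid stress genes 2 were called lower (against 1.53% of all tested genes). They were DDIT4, an mTORC1 inhibitor also induced by hypoxia and glucocorticoid, at 360, 500 and 441 against 233, 252 and 198 CPM (log2 fold change -0.90, SE 0.136, adjusted p = 0.00533), and the serine synthesis gene PSPH (-0.32). Of 18 glycolysis and hypoxia genes ANGPTL4, an inhibitor of lipoprotein lipase, was called higher, from 301, 281 and 334 to 542, 524 and 570 CPM (log2 fold change 0.87, adjusted p = 0.0247). Of 24 matrix genes the membrane protease gene MMP14 was called higher (142, 135 and 180 against 201, 213 and 337 CPM, log2 fold change 0.75) and POSTN lower. MMP14 missed the threshold in the 6 libraries alone (adjusted p = 0.0835). Without guide 2 replicate 2 the calls were 3 higher among glycolysis and hypoxia genes, 7 higher and 2 lower among matrix genes, and 1 higher and 4 lower among ATF4 genes. Without 1 library of either group the glycolysis list held no call, with 3 higher at an unadjusted p under 0.05 over all libraries and 2 with DESeq2, the matrix list 0 to 2, and the ATF4 list 1. COX5A, a cytochrome c oxidase subunit on chromosome 15, was the called member of 20 respiratory chain genes (log2 fold change 0.33).

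EdgeR called no member among the 20 tested cholesterol and fatty acid synthesis genes, the 15 NRF2 antioxidant targets and the 17 TGF-beta pathway genes, whose medians were 0.09, 0.29 and 0.07. At an unadjusted p under 0.05 the 3 lists had 5, 2 and 1 higher members and 2, 0 and 0 lower ones. DESeq2 called 3, 1 and 1 higher and 1, 0 and 0 lower, and without guide 2 replicate 2 the calls were 4, 2 and 2 higher and 1, 0 and 0 lower. FDFT1, squalene synthase, and HMGCS1, which makes HMG-CoA, differed in opposite directions (-0.30 and 0.36). AKR1C1, an aldo-keto reductase, overlapped between groups, at 59.9, 165 and 112 against 223, 200 and 112 CPM, while AKR1B10 had the largest difference of its list (1.94, adjusted p = 0.0653). ANKRD1, a target of YAP and TGF-beta, stood at 70.0, 32.2 and 22.7 against 135, 124 and 99.0 CPM (adjusted p = 0.0856), and INHBA, a subunit of activin, at 10.1, 1.17 and 5.61 against 11, 9.0 and 17.4 CPM (adjusted p = 0.587).

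**Figure D4:**
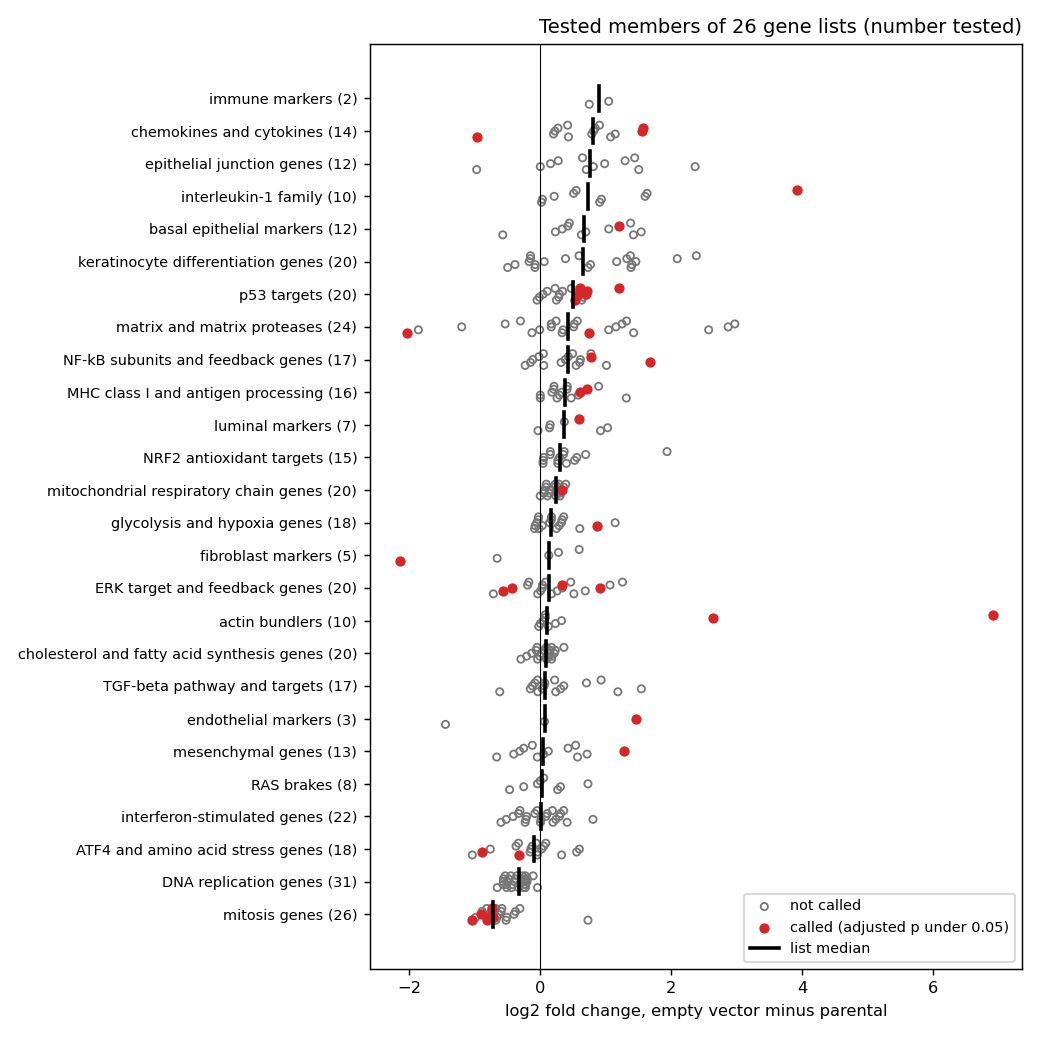
Log2 fold change, empty vector minus parental, of the tested members of 26 gene lists, ordered by list median (black bar), with the number tested in parentheses. Filled red points are called genes and open points are not; mitosis genes have the lowest median, -0.72, and 6 called members, all below 0.

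The called genes were unevenly spread over the chromosomes. On chromosome 6, 79 of 922 tested genes were called higher and 3 lower, and on chromosome 15, 49 of 583 were called higher and 1 lower. These 2 chromosomes held 8.62% of tested genes, 25.9% of the genes called higher (128 of 495) and 1.5% of those called lower. The median log2 fold change of expressed genes was 0.19 on chromosome 6 and 0.17 on chromosome 15, which corresponds to a 1.14-fold and a 1.12-fold higher level. It was above 0 in each of 16 windows of 10 Mb along chromosome 6 and each of 9 along chromosome 15, so the shift ran along both chromosomes and did not sit in a few genes.

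The shift belonged to the empty vector libraries. Their median deviations were 0.12, 0.12 and 0.18 on chromosome 6, and the other 12 libraries ranged from -0.10 to 0.01. On chromosome 15 the empty vector libraries stood at 0.14, 0.11 and 0.14 and the other 12 at -0.10 to 0.03. Among genes described above, CDKN1A, SESN1, SOD2, IER3, TAP1 and HLA-C lie on chromosome 6, and PDIA3, COX5A and CORO2B on chromosome 15. On chromosome 6 the log2 fold changes were 1.20 (CDKN1A), 0.91 (IER3), 0.77 (SOD2), 0.72 (TAP1) and 0.61 (HLA-C), with SESN1 given above. On chromosome 15 they were 1.97 (CORO2B), 0.35 (PDIA3) and 0.33 (COX5A). Without parental replicate 1 the 2 chromosomes had 51 genes called higher and 5 lower, 23.1% and 3.27% of all such calls in that fit. Without guide 2 replicate 2 they had 351 and 22, 22.7% and 2.35% of all such calls. DNA copy number was not measured, and its part in the shift was not tested.

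Chromosomes 7, 8, 11, 13, 19 and 20 showed the reverse. They held 24.3% of tested genes and 37.1% of the genes called lower (99 of 267), with 46 called higher (9.29% of such calls). Over all tested genes, expressed or not, the median log2 fold change was 0.19 on chromosomes 6 and 15 together. On that basis it was -0.11 on chromosomes 7, 8, 11, 13, 19 and 20, which are the ones raised in parental replicate 1. Without that library their median was -0.04, with 15 genes called higher and 44 lower, and the share of all genes called lower was 28.8%. CA8, ENPP2, MMP16 and RAD21 (chromosome 8), POSTN, SPRY2 and GGT4P (13), NRIP3, CDON and FOSL1 (11), FPR1 (19), UBE2C and TPX2 (20) and CPA4, PSPH and COL1A2 (7) lie on them. Without parental replicate 1, CA8, MMP16, POSTN, GGT4P, NRIP3, CDON, FPR1, CPA4 and COL1A2 remained called, and ENPP2, RAD21, SPRY2, FOSL1, UBE2C, TPX2 and PSPH did not. The genes that did not remain called missed the threshold whichever 1 library of either group was left out (adjusted p at least 0.0509). Every such fit also called fewer genes in all, and what part parental replicate 1 had in these calls was not tested. Genes named above as called higher lie on these chromosomes too. Among them are LCP1 (13), CASC19 (8), SDCBP2 and SNAI1 (20), ICAM1 and ANGPTL4 (19) and RELN (7).

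**Figure D5:**
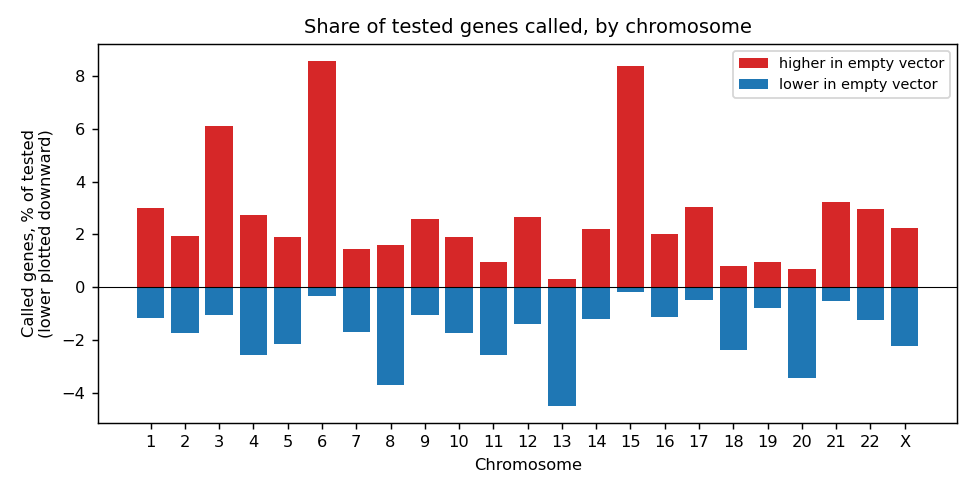
Percent of tested genes on each chromosome that were called higher (red, upward) or lower (blue, downward) in the empty vector. Over all chromosomes 2.84% were called higher and 1.53% lower, and chromosomes 6 and 15 have the tallest red bars.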

How the data were processed

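Per the labels' protocols, RNA was extracted with an RNeasy kit and prepared for sequencing with the KAPA mRNA HyperPrep kit. The submitters' processing notes name Trim Galore 0.6.0, STAR 2.7.8a and GRCh38. The counting program, annotation and strand setting are not given in the sources used here, so overlapping genes and close copies carry that uncertainty. The authors deposited whole-number counts per gene, with Ensembl identifiers and no pooling, which were used as deposited. CPM were computed from them with library totals (46129559 to 78976917 counts over 15 libraries). Symbols and positions come from GENCODE 29 (58503 of 60721 identifiers) and a table of gene names.

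Genes were filtered with filterByExpr by genotype and scaled by TMM, and 1 group-means model was fitted over the 15 libraries with edgeR 4.0.16 (R 4.3.3), with 10 residual degrees of freedom, two-sided tests and Benjamini-Hochberg adjustment over 17457 genes. Standard errors (SE) come from the F statistic. Non-overlap means that each library of a group lies above each of the other. Chromosome medians used genes with an average log2 CPM of at least 3. Simulated counts of the same design, drawn independently and without libraries that stood apart, had 200 genes changed 2-fold. They gave 48% recovered and 5% false among 101 calls over 17191 genes. Alternatives were RLE scaling, no filter, a replicate block, the 6 libraries alone, DESeq2 1.42.0, voom with quality weights (limma 3.58.1), and leaving out libraries. Leaving out both parental replicate 1 and guide 2 replicate 2 was chosen after seeing the data.

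The genes and the 26 lists (441 genes) were chosen with earlier results of these data known. Genes were named by a rule: NF1, the 12 highest and 12 lowest called log2 fold changes among genes with an average log2 CPM of at least 1 and no overlap, the 4 most abundant called genes in each direction, genes near 0 in 1 group, and in each list the called members (at most 4), or the 2 with the largest change where none was called. Other list members named as examples were chosen after their values were seen. The 9 edited libraries enter the spread and are given only as ranges. The deposited CPM table was not used.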

Additional observations from a re-analysis of the deposited data

How the results depend on the processing

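The count of 762 genes (495 higher, 267 lower) became 234 (174 and 60) with an absolute log2 fold change of at least 1 also required, 1626 (1006 and 620) with DESeq2, 6343 (3227 and 3116) with voom and sample quality weights, 2484 (1549 and 935) without guide 2 replicate 2, and 2832 (1714 and 1118) without guide 2 replicate 2 and parental replicate 1. With the 6 libraries only, 492 genes were lower. Leaving out 1 library of either group gave 145 to 374 genes, 114 to 261 higher and 30 to 153 lower. The called list members, 37 in the main fit, numbered 89 with the 6 libraries only, 96 with the 6 libraries and a replicate block, 81 with DESeq2, 13 at an absolute log2 fold change of at least 1, 232 with voom, 123 without guide 2 replicate 2, 132 without guide 2 replicate 2 and parental replicate 1, and 9 to 27 when 1 library of either group was left out. RLE scaling (780 genes) and no filter on low counts (569) stayed within 1.5 times. The share of calls that were higher was 65.0%, and 50.9% with voom and 76.5% to 82.7% without any 1 library of the 2 groups other than parental replicate 1 (59.1%). NF1 had a log2 fold change of -0.31 and passed the threshold with voom, and in the other fits it ranged from -0.31 to -0.19 without passing. The causes were not tested.

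With the replicate number as a block, 400 genes were called (283 higher, 117 lower), 966 in the 6 libraries only (584 and 382). Same-numbered libraries of the 2 groups deviated from their group means with correlations of -0.18, 0.40 and 0.32. The deviations within a group are not independent, and whether the numbers pair the samples was not tested. NF1 had a log2 fold change of -0.26 with the block (adjusted p = 0.165).

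Over 76 genes and 15 alternatives, 1137 single-gene values were recomputed: 862 kept direction and side, 215 lost the call, 60 gained it and 0 changed sign. As most of these genes were named for such differences and did not overlap between the groups, a change of sign had little room. With 3 libraries a group, 48% of 2-fold differences were recovered in simulated counts. Those counts were drawn independently around a common mean, with no libraries that stood apart, so the share need not hold for these data. Genes at 3 counts or fewer are not detectable at this depth.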

Other observations

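Chromosome 3 also stood slightly higher in the empty vector. Of its 966 tested genes 59 were called higher and 10 lower, with a median log2 fold change of 0.08 among expressed genes and medians above 0 in 15 of 20 windows of 10 Mb. The median deviations of the empty vector libraries were 0.05 to 0.06 and those of the other 12 libraries -0.09 to 0.03. TMEM40, CLDN1 and SEC61A1 lie on this chromosome.

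The mitochondrially encoded genes of the respiratory chain had log2 fold changes from 0.14 (MT-CO1) to 0.39 (MT-CO2), while the nuclear-encoded subunits ranged from 0.00 (SDHA) to 0.33 (COX5A). None of the mitochondrially encoded genes was called by edgeR, and poly(A) selection can capture their RNA unevenly between libraries, which was not tested.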
